A study of Mus musculus with 24 samples.

Results

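Chat, Slc5a7, Slc18a3, Ache, Ngfr, Lhx8 and Chrm1 are genes of the cholinergic system of the basal forebrain. They were chosen by name, through all probe sets annotated to only one of these symbols, and made up 7 of the 18193 genes measured, with 10 of the 34945 probe sets that carry a single symbol. The groups were TgCRND8 mice, which carry the APPSwe/Ind transgene, and wild-type littermates as controls, each at 70, 80 and 150 days of age, with 4 mice per group and 1 array per mouse, 24 arrays in all. TgCRND8 mice make human APP with the Swedish and Indiana mutations, in neurons of many regions rather than in cholinergic cells alone, and deposit amyloid as they age. RNA came from whole forebrain, after the olfactory bulb and the cerebellum with brainstem had been cut away, so that septum, striatum, cortex, hippocampus and deeper forebrain lay in 1 extract.

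Cholinergic neurons of the medial septum, the diagonal band and the nucleus basalis send axons to hippocampus and cortex, and their loss is a known feature of Alzheimer disease. A second population, the large interneurons of the striatum, uses the same genes of acetylcholine synthesis and transport. Chat codes for choline acetyltransferase, which makes acetylcholine; Slc18a3 for the transporter that loads it into vesicles; Slc5a7 for the transporter that takes choline back into the terminal; and Ache for the esterase that ends the signal. Ngfr is the p75 neurotrophin receptor of basal forebrain cholinergic neurons, Lhx8 is a transcription factor needed for their formation, and Chrm1 is a muscarinic receptor that cortical, hippocampal and striatal target neurons carry.

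Slc18a3 lies inside Chat. In the RefSeq annotation of GRCm38.p6 Chat spans chr14:32408203-32465909 on the minus strand and Slc18a3 spans chr14:32462437-32464850, on the same strand and within the span of Chat. The starts of both genes are 1059 bases apart. The windows from 250 bases before to 50 bases after each start are shown because the results below ask whether both genes of this locus varied together; capitals mark every match, on either strand, to the GC box GGGCGG, the CCAAT box, the TATA box sequence TATAAA, the homeodomain core sequence TAATTA or the cyclic AMP element core TGACGT.
Chat, chr14:32465860-32466159, minus strand: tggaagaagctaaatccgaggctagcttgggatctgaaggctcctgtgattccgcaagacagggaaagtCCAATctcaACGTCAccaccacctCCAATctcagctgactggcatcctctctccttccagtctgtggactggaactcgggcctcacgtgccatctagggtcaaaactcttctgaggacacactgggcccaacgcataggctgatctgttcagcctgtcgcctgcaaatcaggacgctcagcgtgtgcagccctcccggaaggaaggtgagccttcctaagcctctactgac
Slc18a3, chr14:32464801-32465100, minus strand: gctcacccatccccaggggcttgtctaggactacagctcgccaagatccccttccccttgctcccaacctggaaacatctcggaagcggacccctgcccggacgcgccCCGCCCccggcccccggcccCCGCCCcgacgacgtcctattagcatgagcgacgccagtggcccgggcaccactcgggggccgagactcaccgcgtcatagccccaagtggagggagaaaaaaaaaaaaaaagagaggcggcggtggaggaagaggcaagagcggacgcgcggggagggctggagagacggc
The Chat window held 2 matches to CCAAT and 1 to TGACGT, on the reverse strand, and 0 to GGGCGG. The Slc18a3 window held 2 matches to GGGCGG, both on the reverse strand, and 0 to the other motifs. Of 32851 RefSeq windows of this length, 35.7% held the GC box, 37.4% the CCAAT box, 13.6% the TATA box sequence, 5.3% the homeodomain core and 7.5% the cyclic AMP element core. GC content was 55.7% for Chat and 67.0% for Slc18a3. These matches describe the letters of the windows and say nothing of binding.

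The other 5 genes lie on separate chromosomes. Slc5a7 is at chr17:54273590-54299038, Ache at chr5:137288247-137294466, Ngfr at chr11:95568818-95587698, Lhx8 at chr3:154306288-154330560 and Chrm1 at chr19:8664005-8683606, all in GRCm38.p6. Of the 7 genes, 6 had an entry in the RefSeq promoter table. Ache and Ngfr held 4 matches to GGGCGG each in that window, Slc5a7 and Lhx8 held 0.

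On the log2 scale of the deposited signals the medians of the 24 arrays ran from 4.28 to 4.37. Genes of forebrain neurons were bright, Camk2a of excitatory neurons at a mean of 10.8 and Penk of striatal projection neurons at 9.96, and of 7 measured genes of hindbrain and cerebellum 6 were dim. In the control array numbered 4 of day 150, however, the cerebellar genes Pcp2 and Gabra6 read 6.27 and 4.58, against 3.785 to 4.56 and 2.76 to 3.18 in the other 23 arrays. Genotype differences of the 7 genes at day 150 are therefore given with and without it; those of other genes were not recomputed without it. Xist, the RNA of the inactive X chromosome, read 3.07 to 3.50 in 5 arrays (TgCRND8 day 80 numbers 1 and 3, control day 70 number 4, control day 80 numbers 1 and 4) and at least 9.36 in the others.

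A probe set is called dim here where its mean over 24 arrays lay below 4.31, the median of all probe set means. The only or brightest probe sets of Chat (mean 3.45), Slc18a3 (mean 3.20), Slc5a7 (mean 3.08) and Lhx8 (mean 4.07) were dim, as were 2 of the 3 for Ngfr. Slc5a7 and Slc18a3 lay below the lower quartile of probe set means (3.22), and Lhx8 at the 46.1 percentile. Ngfr (mean 4.56) stood at the 53.5, Ache (mean 6.67) at the 78.4 and Chrm1 (mean 7.65) at the 87.8 percentile. Signals of different probe sets do not rank the genes by transcript number.

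No difference in any of the 7 genes between TgCRND8 and control forebrain passed at any age. At day 150 the differences lay between -0.15 log2 (Chat) and 0.08 (Ache), with 3 genes higher and 4 lower and a median of -0.05, against a median of 0.00044 over all genes. By limma with Benjamini-Hochberg adjustment 0 of 7 passed, and so did 0.121% of all 18193 genes (22 genes). At unadjusted p under 0.05 there were 0 of the 7 and 4.38% of all genes. In bulk forebrain, fewer cholinergic cells and less RNA per cell cannot be told apart.

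**Figure D1:**
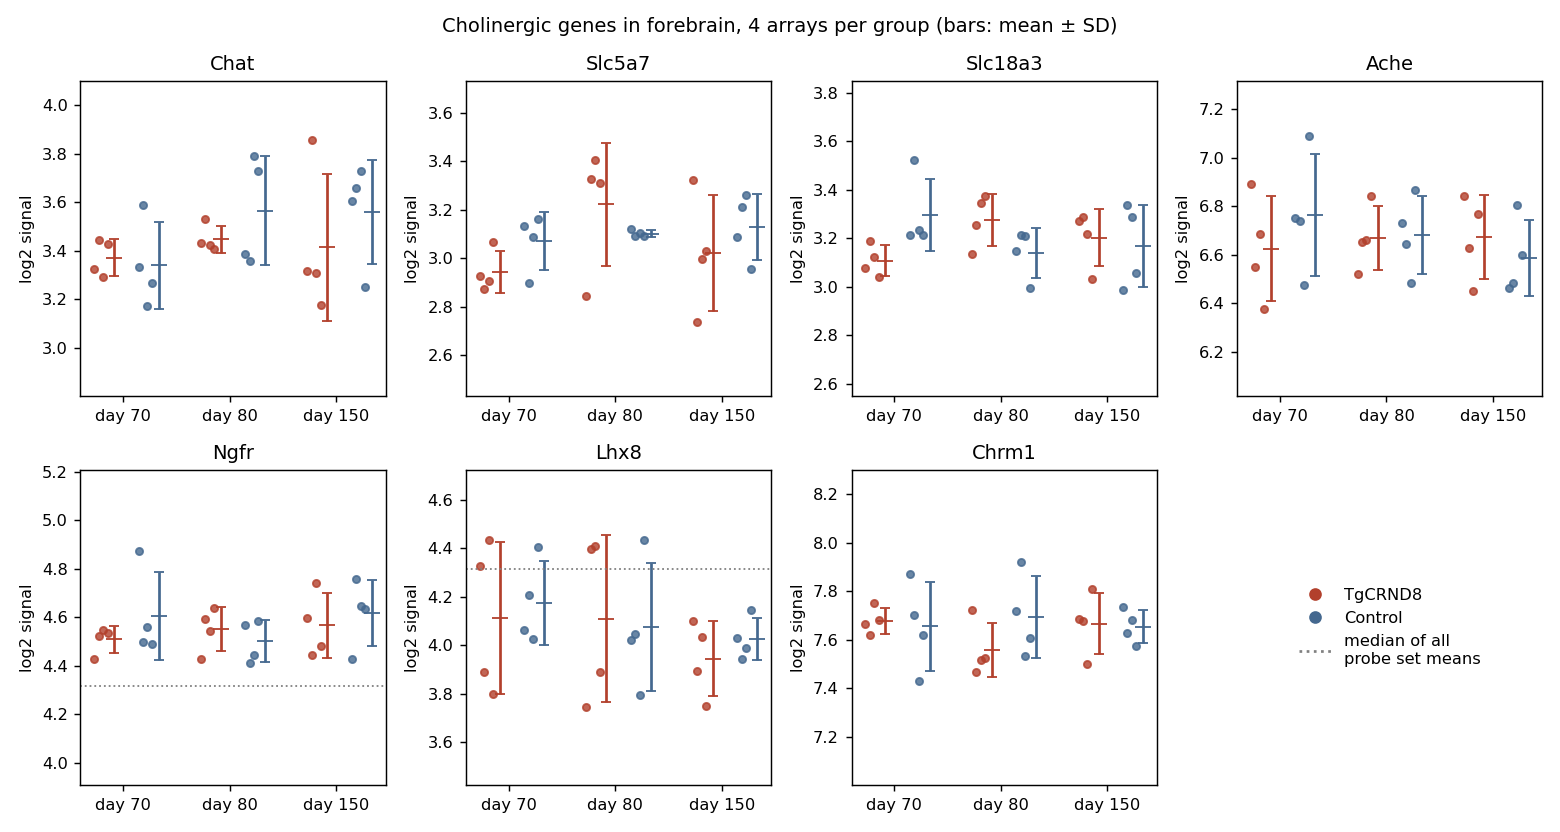
Log2 signal (vertical axes) of the brightest probe set of each gene in TgCRND8 (red, left at each age) and control (blue) arrays at days 70, 80 and 150. Points are arrays, bars the mean and SD of 4, every vertical axis spans the same log2 range, and the dotted line, shown where it falls within the panel, is the median of all probe set means (4.31); only for Slc18a3 at day 70 do the genotypes not overlap.

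Chat read 3.32, 3.86, 3.31 and 3.18 in TgCRND8 at day 150, against 3.61, 3.66, 3.73 and 3.25 in controls. The highest and the lowest of these 8 arrays were both TgCRND8, and 3 of the 4 controls lay above 3 of the 4 TgCRND8 arrays. The means were 3.41 ± 0.30 in TgCRND8 and 3.56 ± 0.21 in controls (SD, n = 4 each), a difference of -0.15 log2 with a 95% interval of -0.41 to 0.11 (adjusted p = 0.9995 by limma). The lowest control was the array with the cerebellar signal, and without it the difference was -0.25 (adjusted p = 0.72 by limma). Chat differed by 0.03 at day 70 (interval -0.23 to 0.29), or 0.11 without the control array numbered 2, and by -0.12 at day 80 (-0.38 to 0.14). Over all alternatives of the closing section the day 70 value lay between -0.06 and 0.11. In TgCRND8 the day 80 arrays stood close together (3.41 to 3.53), while the controls of day 80 formed a pair at 3.36 and 3.39 and a pair at 3.73 and 3.79.

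Slc18a3, in the same locus, had the smallest genotype p of the 7 genes, at day 70. It read 3.08, 3.19, 3.12 and 3.04 in TgCRND8, against 3.21, 3.52, 3.24 and 3.21 in controls. All TgCRND8 arrays lay below all controls, as they did for 1.26% of all genes, but the nearest arrays stood at 3.19 and 3.21, and 1 control stood far above the rest. The difference was -0.19 log2 (SE 0.089; interval -0.37 to -0.0038; unadjusted p = 0.0458 and adjusted p = 0.9997 by limma). Without the high control it was -0.11 (adjusted p = 0.9997 by limma). At that age 0 of the 7 genes and 0% of all genes passed after adjustment, while 1 of the 7 and 3.25% of all genes had unadjusted p under 0.05.

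At day 80 the TgCRND8 mean of Slc18a3 was the higher one, and the groups overlapped. It read 3.14, 3.26, 3.34 and 3.37 in TgCRND8, against 3.15, 3.21, 3.21 and 2.99 in controls, a difference of 0.14 (interval -0.05 to 0.32). The change in the genotype difference between day 70 and day 80, a comparison added after these values were seen, was 0.32 log2 (interval 0.06 to 0.58; unadjusted p = 0.0167, adjusted p = 0.9998 by limma). Of the 7 genes 0 passed there, beside 0% of all genes, and 1 of the 7 genes and 2.64% of all genes had unadjusted p under 0.05. At day 150 the means were 3.20 ± 0.12 in TgCRND8 and 3.17 ± 0.17 in controls (SD, n = 4 each), with a difference of 0.04 that became -0.0013 without the control array with the cerebellar signal.

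Slc5a7, the choline transporter, was lower in TgCRND8 by mean at days 70 and 150 and higher at day 80, each within its interval. At day 80 it read 2.84, 3.33, 3.41 and 3.31 in TgCRND8, against 3.12, 3.09, 3.10 and 3.09 in controls. The controls lay close together and the TgCRND8 arrays both above and below them (SD 0.25 in TgCRND8 and 0.015 in controls). The difference was 0.12 (interval -0.11 to 0.35), and 0.25 without the TgCRND8 array numbered 1 (adjusted p = 0.55 by limma). Over all alternatives it lay between 0.06 and 0.25. At day 70 the difference was -0.13 (interval -0.36 to 0.10) and at day 150 it was -0.11 (-0.33 to 0.12), or -0.17 without the control array with the cerebellar signal. The change in the genotype difference from day 70 to day 80 was 0.25 (interval -0.07 to 0.57).

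Ache, the esterase, was the member of the synthesis and breakdown machinery with a bright probe set. It read 6.84, 6.63, 6.45 and 6.77 in TgCRND8 at day 150, against 6.46, 6.48, 6.81 and 6.60 in controls. The groups overlapped over nearly their whole range. The difference was 0.08 (interval -0.17 to 0.34) at day 150, or 0.09 without the control array with the cerebellar signal. At day 80 it was -0.01 (-0.26 to 0.24), or 0.04 without the TgCRND8 array numbered 1, and lay between -0.08 and 0.05 over all alternatives. At day 70 it was -0.14 (-0.39 to 0.11). The widest spread was in controls of day 70, at 6.48 to 7.09, which holds the highest Ache value of all arrays.

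Ngfr, the p75 receptor, read 4.60, 4.45, 4.74 and 4.48 in TgCRND8 at day 150, against 4.43, 4.76, 4.65 and 4.63 in controls. The difference was -0.05 (interval -0.23 to 0.13), or -0.04 without the control array with the cerebellar signal. It was 0.05 (-0.13 to 0.23) at day 80, or 0.09 without the TgCRND8 array numbered 1 (0.02 to 0.09 over all alternatives). At day 70 it was -0.10 (-0.28 to 0.09). Its 2 dim probe sets differed by -0.13 and -0.0059 at day 150, and by 0.05 and 0.10 at day 80, and did not pass in the limma fit over all probe sets (adjusted p = 0.9997 and 0.9997 at day 150). The groups overlapped at every age for both dim sets.

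Lhx8, the lineage factor, had the widest scatter between mice. At day 70 it read 4.33, 3.89, 4.43 and 3.80 in TgCRND8, against 4.06, 4.21, 4.03 and 4.40 in controls. At both earlier ages the TgCRND8 arrays split into a pair above 4.3 and a pair below 3.9. Means were 3.94 ± 0.16 in TgCRND8 and 4.03 ± 0.087 in controls at day 150 (SD, n = 4 each), a difference of -0.08 (interval -0.40 to 0.23), or -0.04 without the control array with the cerebellar signal. The differences at days 70 and 80 were -0.06 (-0.37 to 0.25) and 0.04 (-0.28 to 0.35). The value at day 80 was 0.16 without the TgCRND8 array numbered 1 (adjusted p = 0.83 by limma). Over all alternatives it lay between -0.06 and 0.16, and 3 of 18 changed its sign.

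Chrm1, the receptor of the target neurons, had the highest signal percentile of the 7 genes. It read 7.69, 7.68, 7.50 and 7.81 in TgCRND8 at day 150, against 7.73, 7.63, 7.68 and 7.58 in controls, a difference of 0.01 (interval -0.18 to 0.20), or -0.01 without the control array with the cerebellar signal. At day 80 the difference was -0.14 (-0.33 to 0.05), or -0.19 without the TgCRND8 array numbered 1 (adjusted p = 0.62 by limma). Over all alternatives the day 80 value lay between -0.19 and -0.06. At day 70 the difference was 0.02 (-0.17 to 0.21). The second Chrm1 probe set gave -0.02, -0.09 and -0.08 at days 150, 80 and 70. At day 80 the 2 probe sets thus gave the same sign, without passing.

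**Figure D2:**
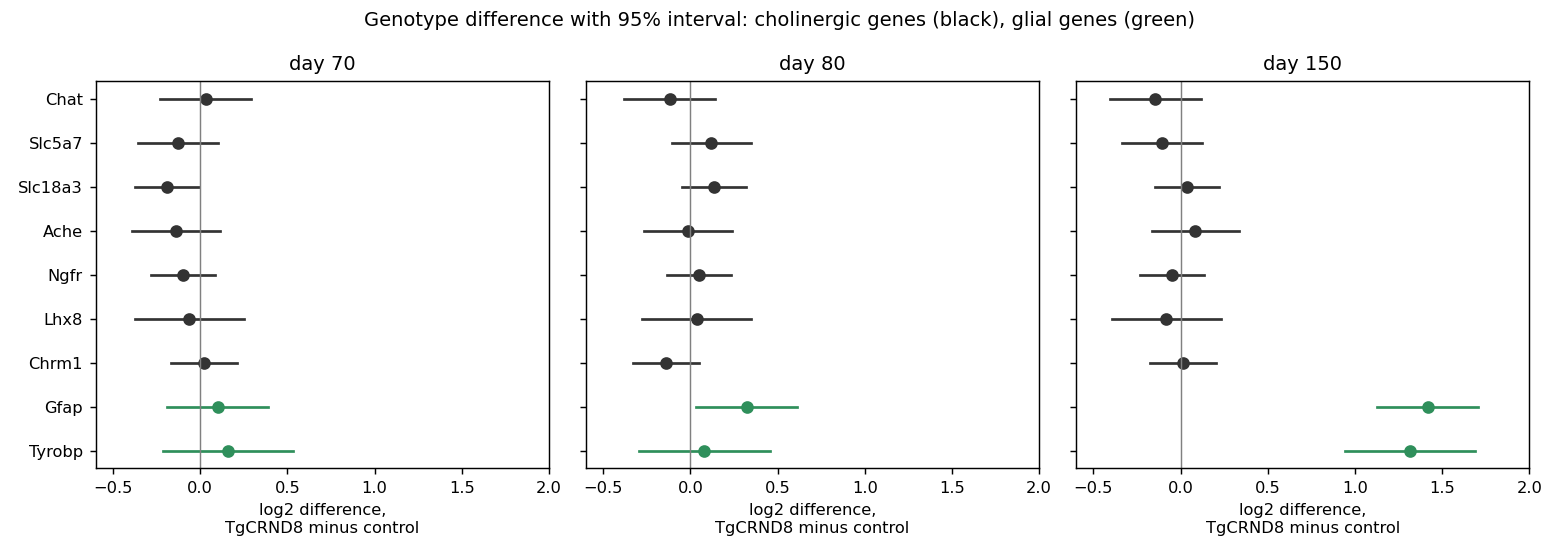
Difference in log2 signal, TgCRND8 minus control (horizontal axes), at days 70, 80 and 150 for the 7 cholinergic genes (black) and for the glial genes Gfap and Tyrobp (green). Points are the limma estimates and lines their 95% intervals; every cholinergic interval but that of Slc18a3 at day 70 spans 0, whereas Gfap and Tyrobp lie at 1.42 and 1.31 at day 150.

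Over the 21 tests of 7 genes at 3 ages, 0 passed and 1 had an unadjusted p under 0.05, and at day 80 0 of the 7 genes had one, beside 3.77% of all genes. Adjusted calls at day 80 were 0 of 7 and 0% of all genes. The intervals reached from -0.41 to 0.35 log2 at the widest, that is from 0.754-fold to 1.27-fold of the control signal. Each interval bounds the signal of 1 gene at 1 age. The data do not show that the groups are alike more closely than these intervals. The same arrays and fit gave 1.42 log2 for Gfap, the filament gene of reactive astrocytes (8.56 ± 0.22 in TgCRND8 and 7.15 ± 0.15 in controls, SD, n = 4 each; adjusted p = 2.14e-06 by limma), and 1.31 for Tyrobp of microglia (adjusted p = 0.00076 by limma), both at day 150. Averaged over the 3 ages, all 7 cholinergic genes were lower in TgCRND8 by mean, between -0.0056 for Slc18a3 and -0.08 for Chat. Of all 18193 genes, 9283 were lower. None of the 7 passed by limma (0 of 7, beside 0.0385% of all genes). Without the TgCRND8 array numbered 1 of day 80 the values were above 0 for Slc18a3 (0.01), Slc5a7 (0.0038) and Lhx8 (0.0043). Over all alternatives the sign changed in 8 of 34 for Slc18a3, 4 of 35 for Ache, 2 of 34 for Lhx8 and 1 of 34 for Slc5a7. It changed in 0 for Chat, Ngfr and Chrm1. The genotype difference at day 150 against that of days 70 and 80 passed for 0 of 7 genes and for 0.011% of all genes, with values from -0.10 (Slc5a7, interval -0.38 to 0.18) to 0.16 (Ache, -0.15 to 0.47). Without the control array with the cerebellar signal the lowest was -0.21 for Chat (-0.10 with it), Slc5a7 stood at -0.16 and Ache at 0.16.

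Age differences within a genotype did not pass for any of the 7 genes either. The largest was for Slc5a7 in TgCRND8, which was 0.28 log2 higher at day 80 than at day 70 (interval 0.05 to 0.51; unadjusted p = 0.0182, adjusted p = 0.848 by limma). It read 2.84, 3.33, 3.41 and 3.31 at day 80, against 2.93, 2.87, 2.91 and 3.07 at day 70. Of the day 80 arrays 3 lay above all day 70 arrays and 1 below them. Without that low array the difference was 0.40 (adjusted p = 0.26 by limma). Over all alternatives it lay between 0.22 and 0.40. The low array and the highest one were both among those with low Xist. In this comparison 0 of 7 genes and 0% of all genes passed after adjustment, and 1 of 7 and 5.72% of all genes had an unadjusted p under 0.05.

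In controls, Slc18a3 at day 80 lay below day 70 in all arrays (3.15, 3.21, 3.21 and 2.99 at day 80, against 3.21, 3.52, 3.24 and 3.21 at day 70), as did 0.934% of all genes. The nearest arrays of both ages read 3.21, so that the separation is nominal. The difference was -0.16 (interval -0.34 to 0.03), and -0.08 without the high day 70 array. Chat was higher by 0.23 at day 80 (interval -0.04 to 0.49) and by 0.22 at day 150 (-0.04 to 0.48) than at day 70 in controls, and by 0.08 and 0.04 in TgCRND8. These comparisons share their day 70 arrays. Without the control array with the cerebellar signal, Chat was 0.33 higher at day 150 than at day 70 in controls (adjusted p = 0.35 by limma).

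For the remaining age comparisons the count of the 7 genes that passed by limma was 0 throughout. All genes passed at a rate of 0% between days 80 and 70 in controls, 0% between days 150 and 80 in controls, 0.022% between days 150 and 70 in controls, 0.0879% between days 150 and 70 in TgCRND8, and 0.022% between days 150 and 80 in TgCRND8. Lhx8 had lower means at day 150 than at day 70 in both genotypes, by -0.17 in TgCRND8 (interval -0.48 to 0.14) and -0.15 in controls (-0.46 to 0.17). Ache in controls differed by -0.18 between days 150 and 70 (interval -0.43 to 0.08).

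The order of group means differed from gene to gene. Chat had its highest mean in controls of day 80 (3.57) and its lowest in controls of day 70 (3.34). Slc5a7 was highest in TgCRND8 of day 80 (3.22) and lowest in TgCRND8 of day 70 (2.94), and Slc18a3 was lowest in TgCRND8 (3.11) and highest in controls (3.30) of day 70. Ache was lowest in controls of day 150 (6.59) and highest in controls of day 70 (6.76), and Lhx8 was lowest in TgCRND8 of day 150 (3.94) and highest in controls of day 70 (4.17). Ngfr was highest in controls of day 150 (4.62) and lowest in controls of day 80 (4.50), and Chrm1 was lowest in TgCRND8 (7.56) and highest in controls (7.69) of day 80. The largest gap between neighbours in this order was smaller than the SD of single mice within groups for each gene, which is a description and no test of the group means.

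The spread between mice of 1 group was itself unequal. The pooled SD within groups was 0.24 log2 for Lhx8, at the 95.5 percentile of all genes, 0.20 for Chat (86.7) and 0.19 for Ache (83.1). It was 0.16 for Slc5a7 (71.3), 0.13 for Chrm1 (38.6), 0.12 for Slc18a3 (34.1) and 0.12 for Ngfr (32.3), with a median of 0.14 over all genes. Lhx8, Chat, Ache and Slc5a7 thus lay above that median.

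Whether the genes varied together was asked on deviations from the 6 group means over 24 arrays, for all 21 pairs. None passed after Benjamini-Hochberg adjustment over the pairs. The permutations shuffled the deviations over all arrays, although subtracting the group means ties the deviations of a group together. The permutation p-values below therefore tend to be too small. The highest r was between Ache and Lhx8 (Pearson r = 0.50, permutation p = 0.0128, adjusted p = 0.27; Spearman rho = 0.53, permutation p = 0.0093, adjusted p = 0.20; r = 0.41 without the 2 arrays farthest from the median). With the TgCRND8 array numbered 4 of day 80 left out, this pair reached r = 0.61 and a permutation adjusted p of 0.046. With the replicate number as a block its r was 0.59 (permutation adjusted p = 0.052). Its r was 0.50 on values not centred on their groups and 0.47 after quantile normalization. Chat and Slc18a3, the nested genes, followed with r = 0.41 (permutation p = 0.0475, adjusted p = 0.36; rho = 0.37, permutation p = 0.0753, adjusted p = 0.53; r = 0.33 without the 2 farthest arrays). For this pair r was 0.17 with the replicate number as a block, 0.21 on values not centred on their groups and 0.30 after quantile normalization. Slc5a7 and Ngfr had r = 0.40 (permutation p = 0.0518, adjusted p = 0.36; rho = 0.42, permutation p = 0.0445, adjusted p = 0.47; r = 0.35 without the 2 farthest). The other 18 pairs had r between -0.20 and 0.28, among them Chat with Slc5a7 at -0.20 and Slc5a7 with Slc18a3 at 0.16. Single arrays and probe sets moved some of these: Ngfr with Chrm1 had r = -0.12, but -0.41 without the 2 farthest arrays and -0.56 without the control array numbered 1 of day 70 (permutation adjusted p = 0.11). Ngfr with Lhx8 had r = 0.08, and 0.41 where the probe sets of each gene were averaged. The arrays of a pair share the forebrain piece, the RNA and the labelling, and whether these moved both genes was not tested.

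**Figure D3:**
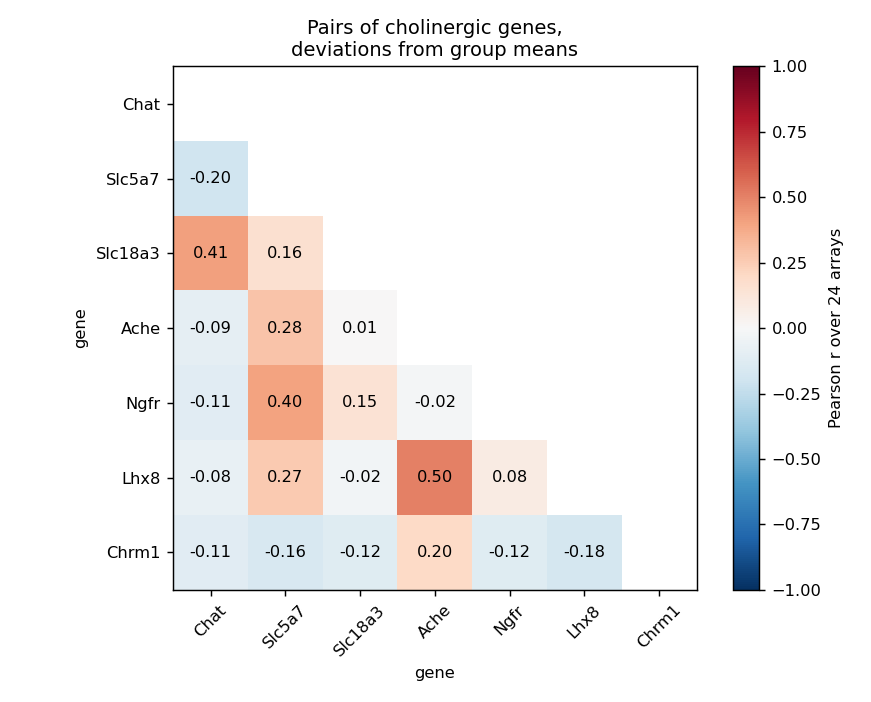
Pearson r of each pair of the 7 cholinergic genes (rows and columns) over 24 arrays, on deviations of log2 signal from the 6 group means. Red is positive and blue negative; Ache with Lhx8 (0.50), Chat with Slc18a3 (0.41) and Slc5a7 with Ngfr (0.40) are highest, and none of the 21 pairs passed after adjustment.

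Probe sets of 1 gene give a measure of how far a dim signal follows its gene. The 2 Chrm1 probe sets had r = 0.57 over arrays (rho 0.51). The 3 Ngfr probe sets had r of 0.10 to 0.25 between them, with 2 of the 3 dim. Chat, Slc18a3, Slc5a7 and Lhx8 had 1 probe set each, so that this check could not be made for them.

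The genes that varied most like each member are given by r over the 24 arrays on the same deviations, as the highest 5 of 18192 and so with no test. Lhx8 went with Zic1, a septal and diencephalic transcription factor (r = 0.80, rho 0.85), Gal, the galanin precursor (r = 0.76, rho 0.75), Sncaip (0.74), Dynlrb2 (0.74) and Oxt, the oxytocin precursor of the hypothalamus (r = 0.73, rho 0.71). Galanin and oxytocin are peptides of particular deep forebrain nuclei. Ache went with Cacna2d2, a calcium channel subunit (r = 0.88, rho 0.85), Lrrc24 (0.87), Kcnh2, a potassium channel (0.84), Ntn1, the guidance cue netrin 1 (0.84) and Spon1 (0.84). Chrm1 went with Mark2 (0.88), Cdk5r1 (0.86), Zcchc14, Ddhd2 and Sorbs2 (each 0.86), all bright.

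**Figure D4:**
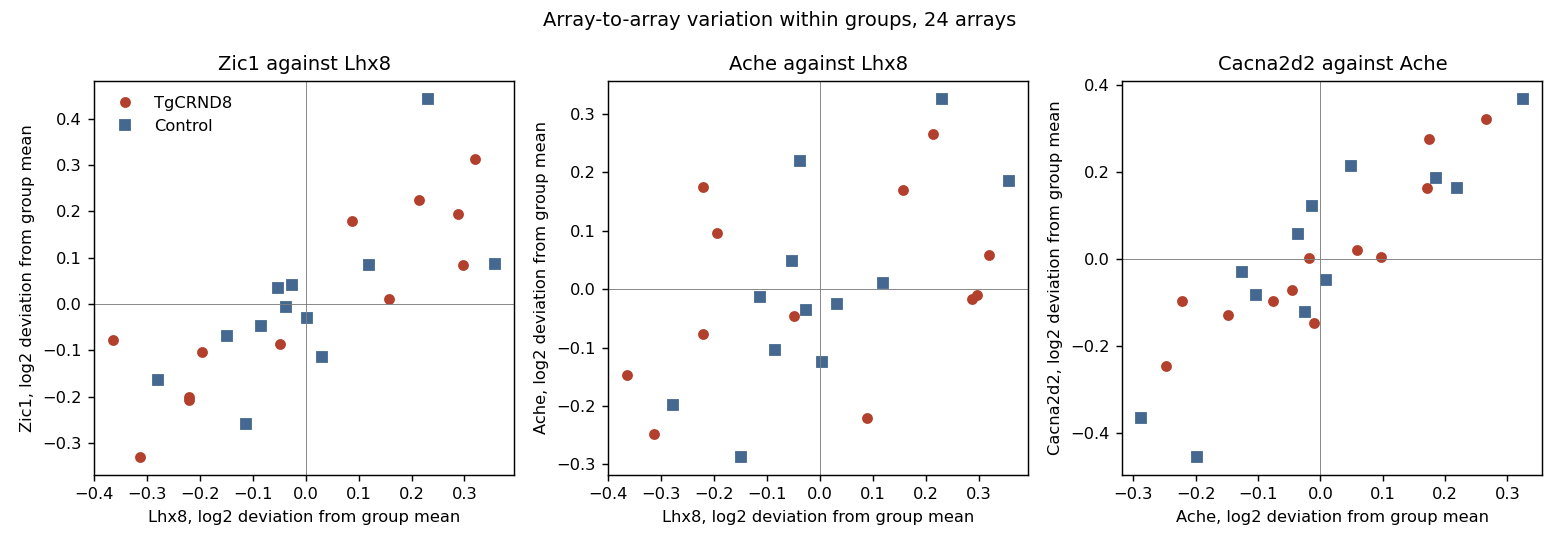
Deviation of log2 signal from the group mean in each of the 24 arrays, for Zic1 against Lhx8, Ache against Lhx8 and Cacna2d2 against Ache (vertical against horizontal axes; red circles TgCRND8, blue squares control). Both genotypes spread along the same diagonal for Zic1 (r = 0.80) and Cacna2d2 (r = 0.88), and more loosely for Ache against Lhx8 (r = 0.50).

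Ngfr went with Trp73 (r = 0.82, rho 0.89), Krt31 (0.76), Gm19600 (0.76), Agtr2 (0.74) and Gm10941 (0.72), and all 5 had dim probe sets. Slc5a7 went with G630055G22Rik (0.72), Cst7, a gene of activated microglia (r = 0.71, rho 0.55), Gsc2 (0.70), Slco1a1 (0.70) and Vsig10 (0.70), again 5 dim ones. Cst7 spread most in TgCRND8 of day 150 (4.24 to 4.95, SD 0.30), against SDs of 0.02 to 0.16 in the other groups. In that group the arrays numbered 1 and 2 read highest and lowest for both Cst7 and Slc5a7. Whether this r holds without them was not tested. Slc18a3 went with 9330179D12Rik (0.86), Cacna2d4 (0.76), Fut1 (0.74), Hlx (0.73) and Nacc1 (0.71), of which Nacc1 alone was not dim (mean signal 7.03). Chat went with Utf1 (0.80), Ggt6 (0.79), Slc22a18 (0.78), 4930511E03Rik (0.77) and 4930405H06Rik (0.77), the first at a mean of 7.44. Among 18192 genes Slc18a3 stood at place 1396 by r to Chat, and Chat at place 653 by r to Slc18a3. Ache stood at place 308 by r to Lhx8, and Lhx8 at place 1254 by r to Ache. Whether the probe sets of Chat and Slc18a3 read separate transcripts of their locus was not tested.

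The wider cholinergic pathway was examined by gene lists. Of 34 further measured genes, grouped as other muscarinic receptors (2), nicotinic receptor subunits (9), choline and acetylcholine handling (9), neurotrophin ligands and receptors (5) and transcription factors of the cholinergic lineage (9), 0 passed by limma in any comparison. At day 150, 19 were higher and 15 lower in TgCRND8 (median 0.01), and 1 had an unadjusted p under 0.05. By list, higher against lower at that age were 0 and 2 muscarinic, 4 and 5 nicotinic, 5 and 4 handling, 5 and 0 neurotrophin and 5 and 4 lineage genes. At day 80, 20 were higher and 14 lower (median 0.04, 2 with unadjusted p under 0.05), and at day 70, 10 were higher and 24 lower (median -0.04, 7 with unadjusted p under 0.05). Over all genes the shares with unadjusted p under 0.05 were 4.38% at day 150, 3.77% at day 80 and 3.25% at day 70. The 7 at day 70 were Chrna3 and Chrnb4, higher in TgCRND8 by mean, and Bche, Slc44a1, Dlx1, Gbx2 and Zic1, lower by mean; the lists were chosen with results of these data known, and 0 of the 34 passed after adjustment. The muscarinic genes Chrm2 and Chrm5 were not analysed here.

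Among the receptors, Chrna3 (dim) read 4.02 in TgCRND8 and 3.78 in controls at day 70 (difference 0.24, adjusted p = 0.9997 by limma), and Chrnb2, a subunit of the main forebrain nicotinic receptor, 5.95 in TgCRND8 and 6.14 in controls (-0.18, adjusted p = 0.9997 by limma). At day 80 Chrnb2 differed by -0.11 and Chrnb4 (dim) by 0.16. Chrna4, the partner of Chrnb2, differed by 0.06 at day 150 and Chrna6 (dim) by -0.22. Chrm4 (dim), an inhibitory muscarinic receptor, differed by 0.04, 0.19 and -0.06 at days 70, 80 and 150. Chrm3 (dim) differed by 0.05, -0.03 and -0.02.

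Among genes of acetylcholine handling, Tmem35a, a chaperone of nicotinic receptors also called NACHO, read 7.80 in TgCRND8 and 7.49 in controls at day 150, a difference of 0.31 (unadjusted p = 0.00865, adjusted p = 0.953 by limma). This was the only gene of the 34 with an unadjusted p under 0.05 at that age. Bche, the second cholinesterase, differed by -0.24 at day 70 (4.33 in TgCRND8, 4.57 in controls) and -0.09 at day 80, and Prima1, the membrane anchor of Ache, by -0.03 at day 150. Ric3, a further nicotinic receptor chaperone, differed by 0.07 at day 70 and 0.15 at day 80. Of the neurotrophin genes, Ntrk3 differed by -0.25 at day 80 (7.10 in TgCRND8, 7.34 in controls) and Bdnf by 0.02 at day 70 and 0.12 at day 150. Ntrk2, the Bdnf receptor, differed by -0.09 at day 70, and Ntf5 (dim) by 0.19 at day 80 and 0.02 at day 150. Among lineage factors Zic1 differed by -0.28 at day 70 (8.19 ± 0.32 in TgCRND8 and 8.48 ± 0.31 in controls, SD, n = 4 each; adjusted p = 0.9997 by limma), and Lhx6 by -0.16 at day 80 and -0.10 at day 150. Gbx1 (dim) differed by 0.17 at day 70 and 0.15 at day 150, and Gbx2 (dim) by 0.16 at day 80.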

How the data were processed

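Forebrain RNA was labelled with biotin after oligo(dT)-primed reverse transcription and hybridised to Affymetrix arrays, per the labels' protocols. The authors deposited log2 signals for 45101 probe sets after a normalization that the labels do not name. All 24 columns were mapped by title, and 0 were left over. After 64 array controls were left out, 34945 of 45037 probe sets carried 1 symbol, 932 several and 9160 none. Each gene took its probe set with the highest mean over 24 arrays (18193 genes).

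One limma fit on 6 group means (18 residual and 7.47 prior degrees of freedom) gave 12 comparisons, 1 of them added after the values were seen, with Benjamini-Hochberg adjustment over all genes and a threshold of 0.05. The median standard error at 1 age was 0.0977. Arrays were also simulated with 200 genes changed at day 150 and noise independent between genes. There 76% of 100 genes shifted by 0.5 log2 and 99% of 100 shifted by 1 passed, with 10 false among 185 calls. The data had 22 calls at day 150, so that adjustment was stricter there and these shares do not carry over to the data. The 7 genes of this report were not singled out in the simulation. Pairs of genes were tested with 100000 permutations of the deviations over all arrays, not within groups, which tends to give p-values that are too small. The members and lists were chosen with earlier results of these data known. Named genes are the 7 members, the most positive and most negative gene of each other cholinergic list at each age and the 5 genes most like each member by r. Genes outside this rule (Gfap, Tyrobp, tissue markers) were named after their values were seen. So were Slc44a1, Dlx1, Chrnb4 and Gbx2 at day 70, named for an unadjusted p under 0.05 by limma.

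Same-numbered arrays of the genotypes at day 150 deviated together over genes (r = 0.26, 0.19, 0.14 and 0.22), so the numbers were taken to pair those arrays; the pairing comes from this check, as no label says what a number marks. In no other comparison were all 4 above 0.1. The differences, intervals and limma p-values above nevertheless come from the fit without pairs. The closing section gives the counts with the replicate number as a block shared by all 6 groups. A fit that paired only the day 150 arrays was not run. Groups of 4 arrays limit precision. The labels call the replicates biological; p-values measure the spread between these mice. The alternatives tried are listed with their effect in the closing section.

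Promoter sequences and gene positions are from RefSeq (GRCm38.p6). Fits used limma 3.58.1 in R 4.3.3, and permutations and figures Python 3.11.15.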

Additional observations from a re-analysis of the deposited data

Results flagged for a closer look

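Of 60 groups of 4 arrays examined (10 probe sets in 6 groups), 2 held an array far from the other 3; chance alone gives about 1 in 20 such groups. Slc18a3 read 3.52 in the control array numbered 2 of day 70, against 3.21 to 3.24 in the other 3; the genotype difference at day 70 was -0.19 log2 with it and -0.11 without it. The second Chrm1 probe set read 5.85 in the TgCRND8 array numbered 4 of day 80, against 5.49 to 5.55 in the other 3. The brightest Chrm1 probe set read 7.52 in that array, within the 7.47 to 7.72 of its group.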

How the results depend on the processing

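For each of the 12 comparisons the count of the 7 genes that passed by limma was 0 in every alternative run: quantile normalization, median centring, the dimmest 40% of genes left out (which drops Chat, Slc5a7, Slc18a3 and Lhx8), the mean of all probe sets, all probe sets, trend and robust settings, array weights, Xist as covariate, only the arrays compared, an adjusted p under 0.10, and each of the 24 arrays left out. Over 1828 single differences recomputed, 0 passed (smallest adjusted p = 0.229 by limma, Slc5a7 at day 150 against day 80 in TgCRND8) and 100 changed sign, none of them larger than 0.097 log2 in the main result. The replicate number as a block was fitted as 1 effect per number, shared by all 6 groups. With it the count stayed 0 of 7 in every comparison, and 31 of all genes passed at day 150, against 22 without. A fit that paired only the day 150 arrays was not run. In the other comparisons at least 1 of the same-numbered arrays fell under 0.1. A pair of groups that was not compared, TgCRND8 of day 70 with controls of day 80, had all 4 above it. Over all group pairs r was -0.37 to 0.61, and 12 of 24 arrays correlated best with their own number. The count of gene pairs that passed was 0, and 0 to 1 with 1 array left out, the 1 being Ache with Lhx8 without the TgCRND8 array numbered 4 of day 80. That pass rests on a permutation p-value that tends to be too small. The background counts moved more. Over all alternatives, 12 to 35 genes passed at day 150 (22; lowest without the control array numbered 2, highest with array weights), 4 to 11 over the mean of 3 ages (7), 1 to 5 for the change at day 150 (2), 8 to 27 for day 150 against 70 in TgCRND8 (16) and 0 to 8 in controls (4), 1 to 14 for day 150 against 80 in TgCRND8 (4) and 0 to 1 in controls (0), 0 to 2 at day 80 (0) and for day 80 against 70 in TgCRND8 (0). The cause was not tested. Chat, Slc18a3, Slc5a7 and Lhx8 had only dim probe sets, and the RNA was of whole forebrain; the part of either in the absence of calls was not tested.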
